A study of Mus musculus with 24 samples.

Results

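The receptors for monoamines (serotonin, dopamine, noradrenaline), acetylcholine and histamine were followed across 3 brain regions and 2 genotypes of mice. They were taken as every gene on the array whose platform symbol begins with Htr, Drd, Adra, Adrb, Chrm, Chrn or Hrh followed by its subtype number or subunit letter. The rule found 46 genes among the 19572 rows that carry 1 gene symbol: 14 serotonin, 5 dopamine and 2 adrenergic receptor genes, 5 muscarinic and 16 nicotinic acetylcholine receptor genes, and 4 histamine receptor genes. The rule itself used no measured value, but this group of receptors was chosen with earlier results of these data known. Each symbol had a single row.

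The arrays measured total RNA from cerebellum, hippocampus and cerebral cortex. KO mice lacked glutamine synthetase in the liver only, and WT mice were wildtype. Each of the 6 groups (cerebellum KO, cerebellum WT, hippocampus KO, hippocampus WT, cortex KO and cortex WT) held 4 arrays, and the titles number 4 animals in each genotype. Glutamine synthetase of the liver removes ammonia by adding it to glutamate, and the enzyme was not targeted in the brain, so the brain of a KO mouse is studied as a tissue exposed to a liver defect. The promoter that drives the deletion and the strain, age and sex of the mice were not stated in any source used here. Values below are the deposited log2 values, so that a difference of 1 is a 2-fold difference of signal, and levels are compared between samples and not between genes. Errors after ± are standard deviations over 4 arrays, and SE is the standard error of a difference in the fit, with 4 arrays per group.

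Most of these receptors are membrane proteins that act through G proteins. Receptors coupled to Gq raise calcium, those coupled to Gs raise cyclic AMP and those coupled to Gi lower it, while nicotinic receptors and the serotonin receptor of Htr3a and Htr3b are ion channels assembled from subunits. Their transmitters reach the forebrain and the cerebellum mainly from small groups of neurons in the brainstem, basal forebrain and hypothalamus. The receptor gene is therefore read in the receiving tissue, while the genes for making and clearing the transmitter are mostly read elsewhere. An array of a dissected region sums over all its cells, so that fewer cells of a type and less RNA per cell cannot be told apart.

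The regions carried their own markers. The mean level of 16 cerebellar granule and Purkinje cell genes was 12.85 to 14.57 in the cerebellum arrays and 8.44 to 8.93 in the others, and the mean of 14 hippocampal neuron genes was 10.06 to 10.77 in hippocampus against at most 9.11 elsewhere. The mean of 14 neocortical projection neuron genes was 11.51 to 12.002 in cortex, 11.21 to 11.48 in hippocampus and 9.20 to 9.83 in cerebellum. 3 arrays stood apart. Cortex KO 1 and cortex KO 4 had mean levels of 12.31 and 11.75 for 17 olfactory bulb genes, where the other cortex arrays had 8.87 to 9.41, and cortex KO 1 was the highest cortex array for 16 of the 17. Cerebellum KO 3 had 8.85 for 16 brainstem and spinal cord genes, against 7.39 to 7.71 in the other cerebellum arrays, 13.54 against 11.45 to 11.997 for 11 oligodendrocyte genes, and the lowest granule and Purkinje cell level of its region. It was also the highest cerebellum array for the mean of 14 neocortical projection neuron genes (9.83, against 9.20 to 9.37), 11 microglia genes (9.42, against 8.45 to 8.70), 12 meninges genes (10.38, against 9.67 to 9.98) and 13 endothelial and mural cell genes (10.23, against 9.70 to 9.89). Gene by gene, it was the highest cerebellum array for 11 of 11 oligodendrocyte, 10 of 11 microglia and 9 of 12 meninges genes. The count was 9 of 16 for brainstem and spinal cord, 7 of 13 for endothelial and mural cell and 6 of 14 for neocortical genes. Lamp5, a neocortical gene, read 12.22 there, against 6.67 to 7.73 on the other cerebellum arrays. A WT array, cortex WT 4, had a mean of 9.99 for 13 thalamus and habenula genes, against at most 9.56 in the other cortex arrays. It was the highest cortex array for 6 of the 13 and for 8 of 11 oligodendrocyte genes. Tcf7l2, 1 of the 13, read 15.09 there, against at most 11.77 in the other cortex arrays. Cortex WT 4 was kept when the 3 arrays were left out. Calls between regions that changed without the 3 arrays that stood apart (cortex KO 1, cortex KO 4 and cerebellum KO 3) are named below. Regional differences without them are given for Htr2c, Drd2, Chrna4, Chrna3 and Chrnb4 only, so other differences may also have moved. In 36 of the 46 genes the mean of at least 1 group lay above 7.51, the level under which 95% of 1091 olfactory receptor rows lie. The other 10 (Chrna1, Chrna2, Chrna5, Chrna6, Chrnb1, Chrnd, Chrng, Hrh4, Htr2b and Htr3b) did not. A gene above that level in 1 region can lie under it in another. Examples are Chrm1 (7.09 in KO and 7.37 in WT mice), Drd1 and Htr3a in cerebellum, and Chrm5 in cerebellum and cortex. The sizes of such differences, and overlaps between regions under that level, are limited by background.

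The first question was how the receptors are distributed over the regions. In WT mice 16 of the 46 receptor genes (34.8%) were lower in cerebellum than in cortex, against 5.47% of all genes tested, and 1 was higher, Chrnb4, against 4.51%. Between cerebellum and hippocampus 19 receptor genes (41.3%) were lower, against 5.85% of all genes, and 0 were higher, against 3.98%. Between hippocampus and cortex 5 were higher (10.9%), against 0.746%, and 0 were lower, against 0.618%. A gene counts here when limma's adjusted p was under 0.05 and the difference at least 2-fold. The median difference over the 46 genes was -0.63 for cerebellum minus cortex and -0.43 for cerebellum minus hippocampus, against -0.017 and 0.033 over all genes tested. The comparisons share the arrays of a region, so their counts are not independent of each other.

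**Figure D1:**
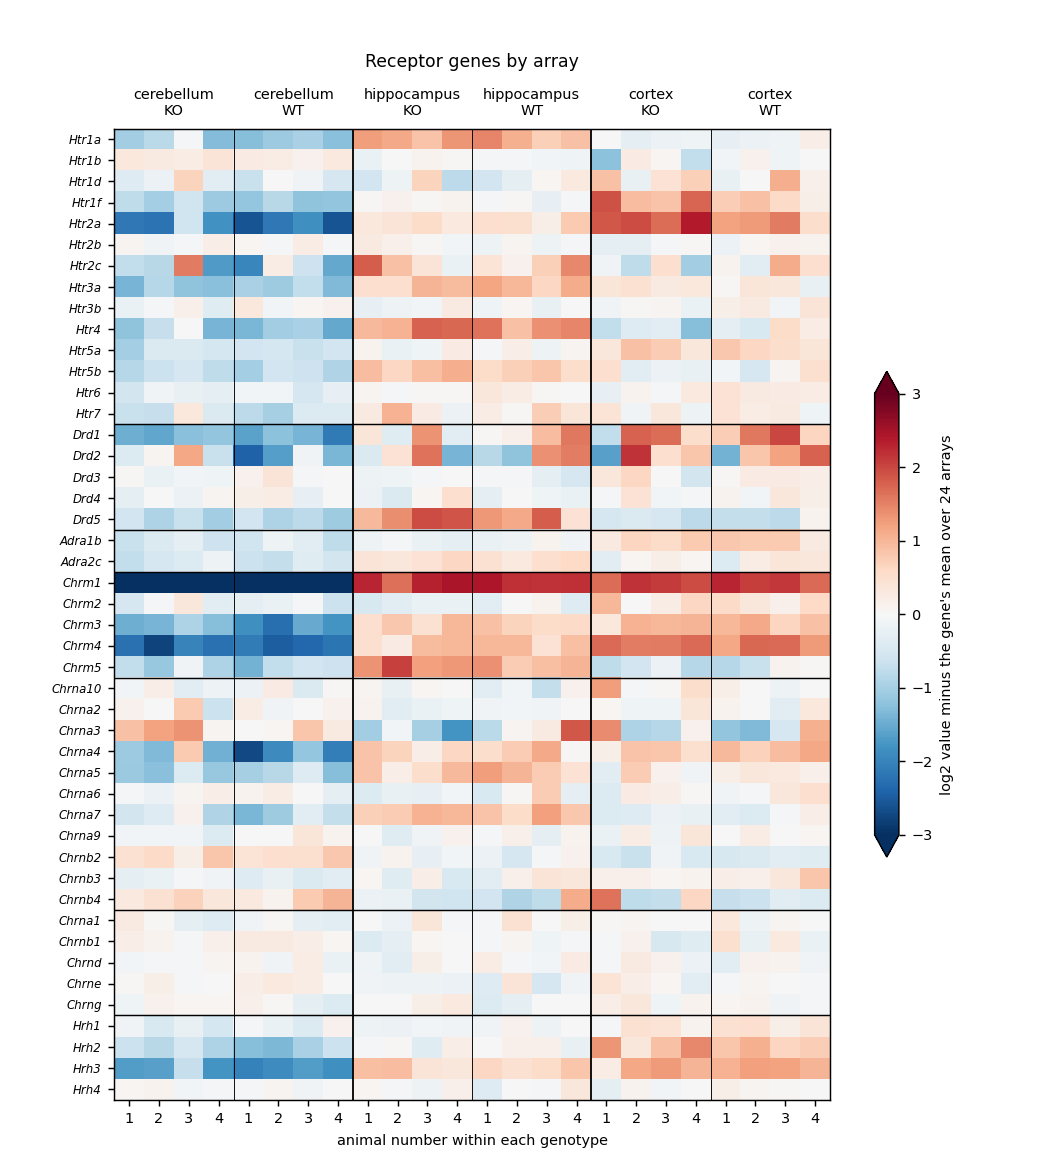
Level of each of the 46 receptor genes (rows, ordered by family) in each of the 24 arrays (columns), as the log2 value minus the gene's mean over the 24 arrays; blue is lower and red higher, and colours stop at 3 either way. The 8 cerebellum arrays at the left are blue for Chrm1, Chrm3, Chrm4, Htr2a and Hrh3, while Drd5, Htr4 and Chrm5 are reddest in hippocampus.

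In KO mice the same comparisons gave 13 receptor genes lower and 0 higher in cerebellum than in cortex (28.3% lower, against 4.58% of all genes, with 3.63% higher). Against hippocampus 15 were lower (32.6%, against 4.63%) and Chrna3 was higher (2.17%, against 3.49%). Between hippocampus and cortex 5 were higher (10.9%, against 0.955%) and 3 lower (Hrh2, Htr1f and Htr2a, 6.52%, against 0.899%). Without the 3 arrays that stood apart, all from KO mice, cerebellum against cortex gave 13 lower (5.08% of all genes) and 3 higher (Chrna3, Chrnb2 and Chrnb4, with 4.94% of all genes higher). Cerebellum against hippocampus then gave 17 lower (5.39% of all genes), with Htr1f and Htr2c added, and 1 higher, Chrna3 (4.12% of all genes). Hippocampus against cortex gave 6 higher (1.03% of all genes), with Htr5b added. It gave 2 lower, Htr2a and Drd1 (0.925% of all genes), while Hrh2 and Htr1f were no longer called. In WT mice Htr2c joined the genes lower in cerebellum than in cortex (-1.32, adjusted p = 0.0147, against 0.0587 with all arrays). For cerebellum against cortex, 13 genes were called in the same direction in KO and WT mice, which is 100% of the KO calls and 76.5% of the WT calls, and over all genes the shares were 88.2% and 72.6%. The corresponding count for cerebellum against hippocampus was 15 (93.8% of the KO and 78.9% of the WT calls), and for hippocampus against cortex 5 (62.5% and 100%). Genes called in 1 genotype only are not thereby shown to differ between genotypes: an F test of the KO effect between regions called 0 of the 46 genes at an adjusted p under 0.05 (smallest 0.921), 0% of all genes, and 4 had an unadjusted p under 0.05, against 5.09% of all genes.

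Called lower in cerebellum than in cortex or hippocampus in both genotypes were 19 of the 46 genes (41.3%), against 5.43% of all genes tested. By coupling these were 5 of 8 Gq, 4 of 6 Gs and 6 of 14 Gi receptor genes and 4 of 18 channel subunit genes. By transmitter they were 4 of 5 muscarinic, 7 of 14 serotonin, 2 of 5 dopamine, 1 of 2 adrenergic, 2 of 4 histamine and 3 of 16 nicotinic genes. The sets differ in dim genes, those with no group mean above the olfactory receptor level. Dim were 8 of 18 channel, 1 of 8 Gq, 1 of 14 Gi and 0 of 6 Gs genes, and 7 of 16 nicotinic genes. The 22 genes called in no pair of regions in either genotype included all 5 subunits of the muscle type of nicotinic receptor (Chrna1, Chrnb1, Chrnd, Chrne and Chrng), of which Chrne alone passed the level of the olfactory receptor rows.

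**Figure D2:**
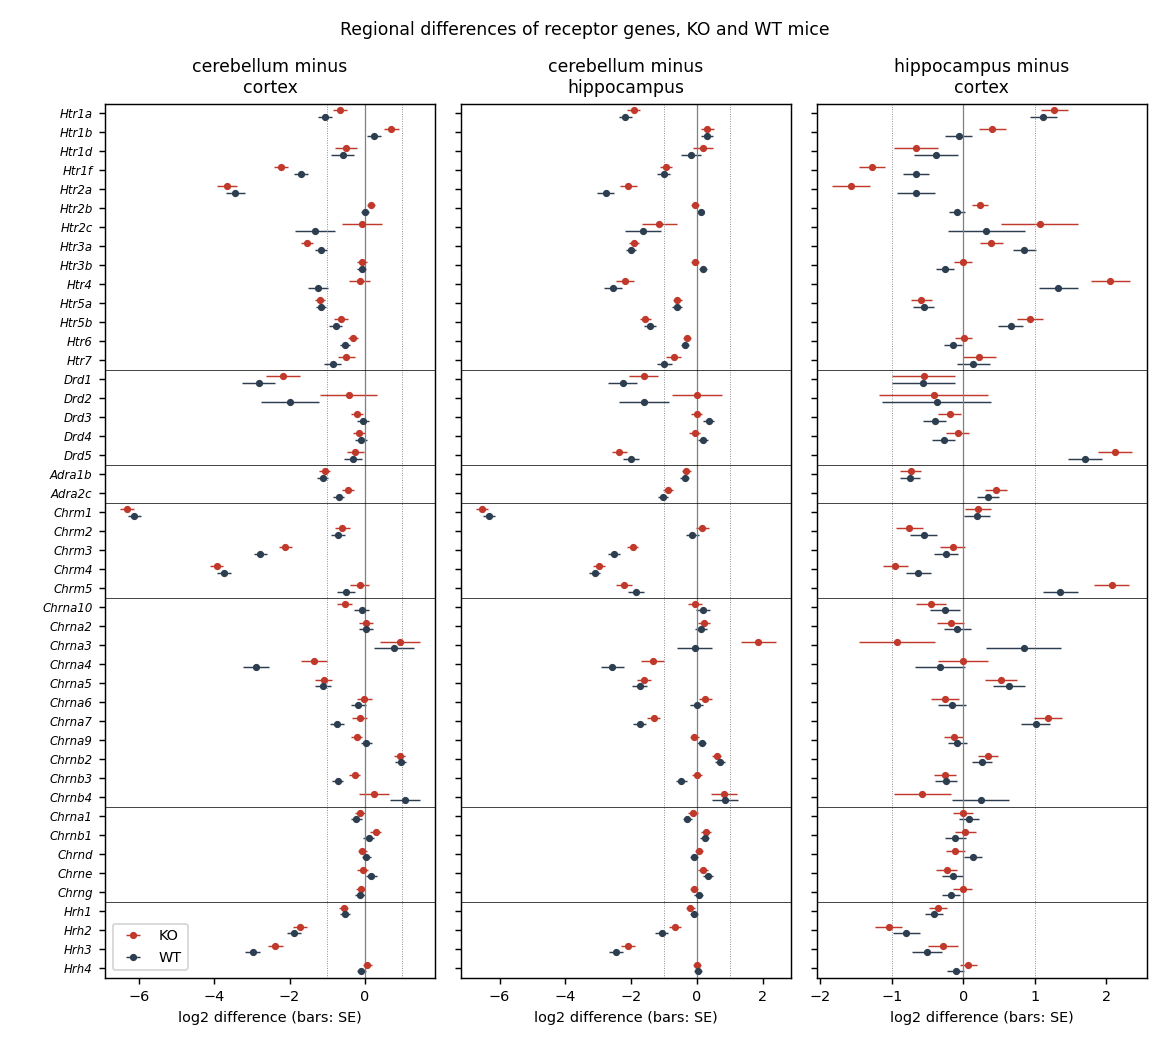
Differences between regions for the 46 receptor genes (rows, by family), as cerebellum minus cortex, cerebellum minus hippocampus and hippocampus minus cortex on the log2 scale; red points are KO and dark points WT mice, bars are standard errors and dotted lines mark 2-fold. Chrm1 lies beyond -6 in both panels that involve the cerebellum, and Drd5, Htr4, Chrm5, Htr1a and Chrna7 lie right of 1 for hippocampus minus cortex in both genotypes.

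The start regions of 37 of the receptor genes held in RefSeq (GRCm38.p6, 250 bases before to 50 after the start) were searched on both strands for 6 short motifs; Chrm1, Chrna2, Chrna6, Chrnb3, Chrnd, Hrh4, Htr3a, Htr4 and Htr5b had no entry. The GC box GGGCGG was in 10 of 15 promoters of genes lower in cerebellum (66.7%), in 9 of 22 of the other receptor genes (40.9%) and in 35.9% of 27025 promoters of all genes. GGACAGC, the right arm of the RE1 element that the repressor REST binds in neuronal genes, was in 3 of the 15 and 1 of the 22, against 6.59% of all promoters. The left arm TCAGCACC was in 1 of the 15 and 0 of the 22 (1.59% of all). The TATA box TATAAA was in 0 and 1 (14.2% of all), the cyclic AMP response element TGACGTCA in 0 and 0 (1.88%), and the E-box CAGCTG in 1 and 7 (16.1%). Median GC content was 61.3% in the 15, 56.8% in the 22 and 52.7% in all promoters, and a match is a description of these letters only. The promoters of 4 genes low in cerebellum are shown with that of Chrnb2, whose level was not lower there, each 5′ to 3′ on the gene's strand with GGGCGG and GGACAGC or their complements in capitals. They lie at chr2:91921939-91922238 (Chrm4, plus strand), chr2:181039128-181039427 (Chrna4, minus strand), chr3:89764583-89764882 (Chrnb2, minus strand), chr2:180104358-180104657 (Hrh3, minus strand) and chr14:74640624-74640923 (Htr2a, plus strand).
Chrm4: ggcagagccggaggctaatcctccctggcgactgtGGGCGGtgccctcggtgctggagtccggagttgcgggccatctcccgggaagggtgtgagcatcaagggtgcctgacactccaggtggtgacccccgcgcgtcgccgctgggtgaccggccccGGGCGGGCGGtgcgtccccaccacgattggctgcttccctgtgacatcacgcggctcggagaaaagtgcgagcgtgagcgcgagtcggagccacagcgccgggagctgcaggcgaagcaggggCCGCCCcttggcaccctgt
Chrna4: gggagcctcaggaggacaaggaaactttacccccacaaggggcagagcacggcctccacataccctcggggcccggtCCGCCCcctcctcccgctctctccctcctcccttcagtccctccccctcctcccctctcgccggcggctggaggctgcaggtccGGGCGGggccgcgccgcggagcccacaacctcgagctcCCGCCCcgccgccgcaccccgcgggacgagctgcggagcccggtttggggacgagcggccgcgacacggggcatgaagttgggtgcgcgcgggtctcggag
Chrnb2: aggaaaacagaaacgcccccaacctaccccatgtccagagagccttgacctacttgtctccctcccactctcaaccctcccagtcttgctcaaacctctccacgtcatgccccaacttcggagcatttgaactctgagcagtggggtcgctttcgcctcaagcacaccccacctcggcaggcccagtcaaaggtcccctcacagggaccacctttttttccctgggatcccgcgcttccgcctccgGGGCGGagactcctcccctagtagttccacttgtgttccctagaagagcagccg
Hrh3: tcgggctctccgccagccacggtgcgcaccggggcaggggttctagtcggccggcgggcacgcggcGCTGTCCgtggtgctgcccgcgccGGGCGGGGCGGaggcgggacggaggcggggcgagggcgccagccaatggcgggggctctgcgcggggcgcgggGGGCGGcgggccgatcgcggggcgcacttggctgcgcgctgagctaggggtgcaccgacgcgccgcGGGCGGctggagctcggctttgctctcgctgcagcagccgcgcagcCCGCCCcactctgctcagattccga
Htr2a: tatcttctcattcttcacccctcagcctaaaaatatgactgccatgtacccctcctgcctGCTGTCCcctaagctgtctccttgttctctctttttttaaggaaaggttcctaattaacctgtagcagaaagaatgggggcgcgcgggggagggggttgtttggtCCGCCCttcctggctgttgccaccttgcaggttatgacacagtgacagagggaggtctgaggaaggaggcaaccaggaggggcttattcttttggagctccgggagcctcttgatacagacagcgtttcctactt

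Muscarinic receptors gave the largest regional differences among the 46 genes. Chrm1, the Gq-coupled receptor that makes forebrain pyramidal neurons more excitable in response to acetylcholine, read 7.10, 7.16, 7.40 and 6.71 in KO cerebellum and 7.39, 7.86, 7.27 and 6.94 in WT cerebellum. Hippocampal Chrm1 values were 13.73, 13.11, 13.77 and 13.89 in KO mice and 13.87, 13.64, 13.61 and 13.63 in WT mice. Cortical Chrm1 values were 13.13, 13.61, 13.54 and 13.39 in KO mice and 13.72, 13.53, 13.58 and 13.15 in WT mice. Every cerebellum array lay under every array of the other regions, and cerebellum minus cortex was -6.32 (SE 0.18, adjusted p = 7.51e-19) in KO and -6.13 (SE 0.18, adjusted p = 1.15e-18) in WT mice. Cerebellum minus hippocampus was -6.53 (SE 0.18, adjusted p = 2.56e-19) in KO and -6.32 (SE 0.18, adjusted p = 4.56e-19) in WT mice.

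Chrm4, a Gi-coupled muscarinic receptor, read 7.62, 7.08, 7.86 and 7.61 in KO cerebellum and 7.75, 7.39, 7.50 and 7.66 in WT cerebellum. Hippocampal Chrm4 values were 10.34, 10.11, 10.80 and 10.86 in KO mice and 10.84, 10.86, 10.30 and 10.75 in WT mice. Cortical Chrm4 values were 11.55, 11.40, 11.42 and 11.55 in KO mice and 11.02, 11.57, 11.55 and 11.14 in WT mice. The 3 regions did not overlap, with cortex above hippocampus above cerebellum, and the difference of hippocampus minus cortex was -0.95 (SE 0.17, adjusted p = 0.000631) in KO and -0.63 (SE 0.17, adjusted p = 0.0245) in WT mice, under 2-fold. Cerebellum minus cortex was -3.93 (SE 0.17) in KO and -3.74 (SE 0.17) in WT mice. Without hippocampus KO 3 or KO 4 the KO difference of hippocampus minus cortex passed 2-fold (-1.06 at the most).

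Chrm3, Gq-coupled like Chrm1, read 8.20, 8.27, 8.72 and 8.37 in KO cerebellum and 7.82, 7.40, 8.13 and 7.85 in WT cerebellum. Hippocampal Chrm3 values were 10.16, 10.46, 10.12 and 10.64 in KO mice and 10.54, 10.32, 10.21 and 10.23 in WT mice. Cortical Chrm3 values were 9.96, 10.70, 10.65 and 10.68 in KO mice and 10.65, 10.80, 10.31 and 10.54 in WT mice. Hippocampus and cortex overlapped and lay above cerebellum in every array. Cerebellum minus cortex was -2.11 (SE 0.17) in KO and -2.77 (SE 0.17) in WT mice, and cerebellum minus hippocampus -1.96 (SE 0.17) in KO and -2.53 (SE 0.17) in WT mice.

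Chrm5, the muscarinic receptor best known from dopamine neurons of the midbrain, was highest in hippocampus. It read 6.38, 5.99, 7.02 and 6.20 in KO cerebellum and 5.70, 6.39, 6.55 and 6.49 in WT cerebellum. Hippocampal Chrm5 values were 8.48, 9.18, 8.36 and 8.41 in KO mice and 8.49, 7.89, 8.01 and 8.14 in WT mice, and all 8 lay above every array of the other regions. Cortical Chrm5 values were 6.37, 6.54, 6.95 and 6.27 in KO mice and 6.27, 6.45, 7.23 and 7.17 in WT mice. Hippocampus minus cortex was 2.07 (SE 0.24, adjusted p = 2.45e-06) in KO and 1.35 (SE 0.24, adjusted p = 0.000632) in WT mice, while cerebellum and cortex overlapped.

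Chrm2, the Gi-coupled receptor that acts as an autoreceptor on cholinergic terminals, was the muscarinic gene called in no pair of regions. It read 8.88, 9.31, 9.72 and 9.05 in KO cerebellum and 9.12, 9.18, 9.32 and 8.73 in WT cerebellum. Hippocampal Chrm2 values were 8.90, 9.05, 9.19 and 9.17 in KO mice and 9.06, 9.40, 9.48 and 8.999 in WT mice. Cortical Chrm2 values were 10.38, 9.36, 9.60 and 9.99 in KO mice and 9.94, 9.72, 9.52 and 9.98 in WT mice. Cortex had the highest means and overlapped both other regions, and hippocampus minus cortex was -0.76 (SE 0.19, adjusted p = 0.0121) in KO and -0.56 (SE 0.19, adjusted p = 0.0768) in WT mice.

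Of the serotonin receptors, Htr2a had the largest regional range. Htr2a encodes the Gq-coupled receptor of cortical pyramidal neurons through which psychedelic drugs act. It read 8.48, 8.42, 10.04 and 8.82 in KO cerebellum and 8.04, 8.49, 8.78 and 8.04 in WT cerebellum. Hippocampal Htr2a values were 10.96, 11.03, 11.19 and 10.92 in KO mice and 11.13, 11.10, 10.80 and 11.42 in WT mice. Cortical Htr2a values were 12.50, 12.58, 12.31 and 13.01 in KO mice and 11.85, 11.91, 12.20 and 11.16 in WT mice. Cerebellum lay under both other regions in every array, and cerebellum minus cortex was -3.66 (SE 0.26, adjusted p = 3.64e-11) in KO and -3.44 (SE 0.26, adjusted p = 7.73e-11) in WT mice. Cerebellum minus hippocampus was -2.08 (SE 0.26) in KO and -2.77 (SE 0.26) in WT mice. Within the cerebellum the highest value belonged to KO 3, the array that stood apart. Lamp5, a marker of cortical neurons, read 12.22 there, against 6.67 to 7.73 on the other cerebellum arrays. The neocortical list did not move as a whole: KO 3 was the highest cerebellum array for 6 of its 14 genes. Tbr1, another of them, read 6.99 on KO 3 and 6.30 to 7.59 on the other cerebellum arrays.

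Htr1a, the Gi-coupled receptor that hyperpolarises hippocampal pyramidal neurons and serotonin neurons, was highest in hippocampus. It read 8.38, 8.62, 9.38 and 8.13 in KO cerebellum and 8.14, 8.34, 8.46 and 8.16 in WT cerebellum. Hippocampal Htr1a values were 10.68, 10.55, 10.28 and 10.74 in KO mice and 10.89, 10.50, 10.13 and 10.30 in WT mice. Cortical Htr1a values were 9.42, 9.17, 9.26 and 9.31 in KO mice and 9.18, 9.25, 9.29 and 9.63 in WT mice. All hippocampus arrays lay above all others, and hippocampus minus cortex was 1.27 (SE 0.19, adjusted p = 5.74e-05) in KO and 1.12 (SE 0.19, adjusted p = 0.000339) in WT mice. Cerebellum KO 3 was the highest cerebellum array and overlapped cortex. Without hippocampus WT 1 the WT difference of hippocampus minus cortex was 0.97, under 2-fold.

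Htr4, a Gs-coupled receptor, followed the same order. It read 8.34, 8.86, 9.56 and 8.14 in KO cerebellum and 8.16, 8.49, 8.58 and 8.02 in WT cerebellum. Hippocampal Htr4 values were 10.51, 10.59, 11.30 and 11.26 in KO mice and 11.16, 10.42, 10.92 and 11.02 in WT mice. Cortical Htr4 values were 8.81, 9.15, 9.21 and 8.27 in KO mice and 9.27, 9.09, 10.09 and 9.76 in WT mice. Hippocampus lay above all other arrays, with hippocampus minus cortex at 2.06 (SE 0.27, adjusted p = 1.32e-05) in KO and 1.33 (SE 0.27, adjusted p = 0.00254) in WT mice, while cerebellum and cortex overlapped.

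Htr3a, the channel subunit that marks a class of cortical and hippocampal interneurons, read 7.07, 7.61, 7.27 and 7.21 in KO cerebellum and 7.50, 7.41, 7.73 and 7.14 in WT cerebellum. Hippocampal Htr3a values were 8.97, 8.97, 9.50 and 9.41 in KO mice and 9.66, 9.47, 9.10 and 9.57 in WT mice. Cortical Htr3a values were 8.82, 8.93, 8.74 and 8.79 in KO mice and 8.50, 8.84, 8.81 and 8.24 in WT mice. Cerebellum lay under both other regions in every array, with cerebellum minus hippocampus at -1.92 (SE 0.16, adjusted p = 4.48e-10) in KO and -2.01 (SE 0.16, adjusted p = 1.35e-10) in WT mice. Its partner subunit Htr3b, the neighbouring gene on chromosome 9, had no group mean above the olfactory receptor level and was called in no pair of regions; its group means were 6.80 to 7.10.

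Htr5b, a Gi-coupled receptor gene of rodents that is not functional in humans, read 7.11, 7.33, 7.48 and 7.22 in KO cerebellum and 6.95, 7.41, 7.35 and 7.07 in WT cerebellum. Hippocampal Htr5b values were 8.90, 8.59, 8.87 and 9.06 in KO mice and 8.52, 8.68, 8.80 and 8.49 in WT mice. Cortical Htr5b values were 8.48, 7.66, 7.79 and 7.74 in KO mice and 7.88, 7.46, 8.05 and 8.46 in WT mice. Hippocampus was highest and separate from the rest in every array, apart by 0.93 (SE 0.18) from cortex in KO and 0.66 (SE 0.18) in WT mice, under 2-fold, and by more than 2-fold from cerebellum. The KO difference to cortex passed 2-fold without hippocampus KO 2 or cortex KO 1 (up to 1.12). Its paralogue Htr5a was instead highest in cortex, and cerebellum minus cortex was -1.19 (SE 0.14, adjusted p = 2.83e-07) in KO and -1.16 (SE 0.14, adjusted p = 2.69e-07) in WT mice.

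Htr1f, a Gi-coupled receptor targeted by migraine drugs, was lowest in cerebellum. It read 7.80, 7.54, 7.97 and 7.48 in KO cerebellum and 7.41, 7.75, 7.36 and 7.40 in WT cerebellum. Hippocampal Htr1f values were 8.61, 8.71, 8.60 and 8.68 in KO mice and 8.53, 8.60, 8.33 and 8.55 in WT mice. Cortical Htr1f values were 10.49, 9.50, 9.43 and 10.31 in KO mice and 9.31, 9.44, 9.15 and 8.76 in WT mice. The regions did not overlap, and cerebellum minus cortex was -2.24 (SE 0.18, adjusted p = 4.88e-10) in KO and -1.69 (SE 0.18, adjusted p = 4.26e-08) in WT mice. Htr1b, Htr1d, Htr2b, Htr6 and Htr7 were called in no pair of regions in either genotype, and Htr2b had group means of 5.29 to 5.52, under the olfactory receptor level.

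Htr2c, the Gq-coupled receptor whose RNA is most abundant in the choroid plexus, varied widely within groups. It read 10.76, 10.65, 13.06 and 9.79 in KO cerebellum and 9.54, 11.71, 10.86 and 9.96 in WT cerebellum. Hippocampal Htr2c values were 13.31, 12.36, 11.87 and 11.29 in KO mice and 11.90, 11.62, 12.20 and 12.93 in WT mice. Cortical Htr2c values were 11.38, 10.73, 12.002 and 10.45 in KO mice and 11.60, 11.18, 12.60 and 11.99 in WT mice. The regions overlapped, and cerebellum minus hippocampus passed in WT mice (-1.64, SE 0.54, adjusted p = 0.0185) but not in KO mice (-1.14, SE 0.54, adjusted p = 0.116). The KO difference was -1.81 (SE 0.46, adjusted p = 0.00281) without the 3 arrays that stood apart, and the WT call was lost without cerebellum WT 1, cerebellum WT 4 or hippocampus WT 4. The mean of 13 choroid plexus genes was 11.51 in hippocampus KO 1, 10.49 in cerebellum KO 3 and 10.87 in cerebellum WT 2, the highest level of each region and genotype they belong to, where Htr2c read 13.31, 13.06 and 11.71. Ttr, the choroid plexus transport protein for thyroid hormone, read 18.33, 17.56 and 17.09 on those arrays, against 9.66 to 10.17 in the other KO cerebellum arrays. Cerebellum WT 1 and WT 4 had Ttr at 16.51 and 15.89 with Htr2c at 9.54 and 9.96, the lowest values of that group. In cortex, where the choroid plexus level was 8.12 to 8.96, Htr2c still read 10.45 to 12.60. The part of choroid plexus in the regional differences of Htr2c was not tested.

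Dopamine receptors differed by subtype. Drd5, a Gs-coupled receptor, read 8.13, 7.78, 8.04 and 7.67 in KO cerebellum and 8.13, 7.79, 7.92 and 7.64 in WT cerebellum. Hippocampal Drd5 values were 9.69, 10.11, 10.67 and 10.59 in KO mice and 10.01, 9.85, 10.52 and 9.14 in WT mice. Cortical Drd5 values were 8.19, 8.28, 8.19 and 7.92 in KO mice and 7.99, 7.98, 7.92 and 8.82 in WT mice. Hippocampus lay above every other array, with hippocampus minus cortex at 2.12 (SE 0.23, adjusted p = 1.14e-06) in KO and 1.70 (SE 0.23, adjusted p = 3.78e-05) in WT mice, the largest difference between these regions among the 46 genes in either genotype. Drd3 and Drd4, both Gi-coupled, were called in no pair of regions.

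Drd1, the Gs-coupled receptor of striatal neurons of the direct pathway, read 6.79, 6.69, 7.0004 and 7.08 in KO cerebellum and 6.65, 7.02, 6.86 and 6.14 in WT cerebellum. Hippocampal Drd1 values were 8.62, 7.90, 9.59 and 7.91 in KO mice and 8.29, 8.42, 9.19 and 9.83 in WT mice. Cortical Drd1 values were 7.52, 10.02, 9.93 and 8.78 in KO mice and 8.99, 9.84, 10.25 and 8.89 in WT mice. All cerebellum arrays lay under all others, and cerebellum minus cortex was -2.17 (SE 0.44, adjusted p = 0.000336) in KO and -2.83 (SE 0.44, adjusted p = 9.97e-06) in WT mice. The cortex and hippocampus values spread widely within each group.

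Drd2, the Gi-coupled receptor of striatal neurons of the indirect pathway, had the widest spread within groups. It read 8.91, 9.40, 10.48 and 8.64 in KO cerebellum and 6.90, 7.67, 9.20 and 7.93 in WT cerebellum. Hippocampal Drd2 values were 8.88, 9.74, 10.94 and 7.92 in KO mice and 8.47, 8.11, 10.69 and 10.85 in WT mice. Cortical Drd2 values were 7.69, 11.49, 9.83 and 10.13 in KO mice and 7.89, 10.15, 10.51 and 11.07 in WT mice. All regions overlapped, and the call of cerebellum minus cortex in WT mice (-1.98, SE 0.76, adjusted p = 0.0443) was not made in KO mice (-0.43, SE 0.76, adjusted p = 0.729). In KO mice the difference was -1.12 without cortex KO 1, 0.14 without cortex KO 2 and -1.66 (SE 0.86, adjusted p = 0.161) without the 3 arrays that stood apart. The WT call was lost in 9 of the 24 fits that left out 1 array, and the WT difference ranged over -2.66 to -1.60 in those 24. The mean of 12 striatal projection neuron genes other than Drd1 and Drd2 was 10.09 in cortex KO 1 and 9.99 in cortex WT 1, where Drd2 read 7.69 and 7.89, with 10.57 to 11.02 in the rest of the cortex arrays. In hippocampus that level was 10.78 in KO 3, 10.43 in WT 3 and 10.89 in WT 4, where Drd2 read 10.94, 10.69 and 10.85, and at most 10.28 in the other hippocampus arrays. In cerebellum that level stayed within 9.61 to 10.01, while Drd2 ran from 6.90 to 10.48. The part of striatal tissue in the Drd1 and Drd2 values was not tested.

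**Figure D3:**
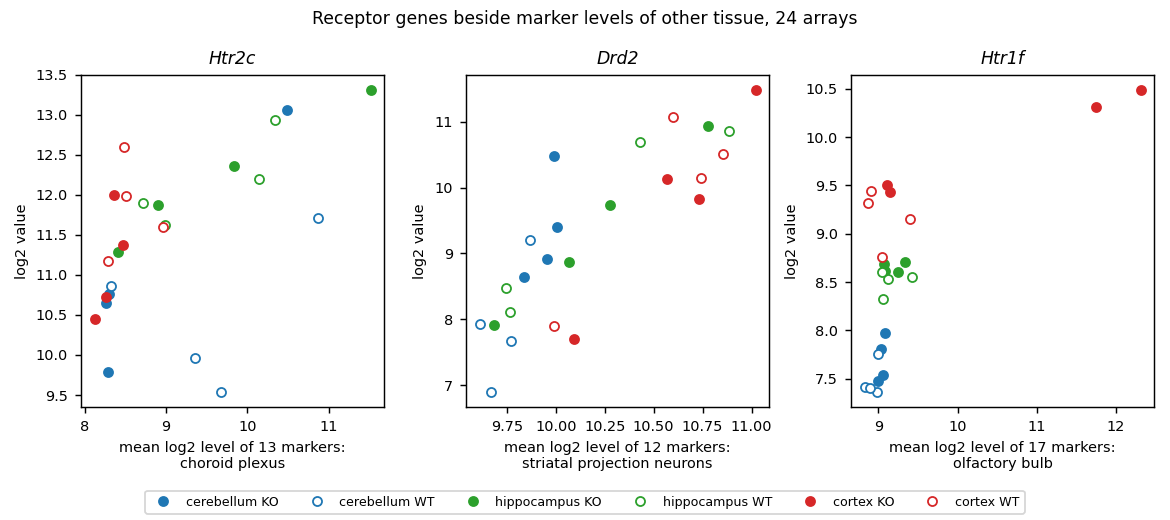
Level of Htr2c, Drd2 and Htr1f in each of the 24 arrays (log2 value, vertical) against the mean log2 level of marker genes of another tissue on the same array (horizontal): 13 choroid plexus, 12 striatal and 17 olfactory bulb genes; filled points are KO and open points WT mice, coloured by region. Cortex KO 1 and KO 4 stand alone at the right of the Htr1f panel, at marker levels of 12.31 and 11.75.

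The adrenergic genes measured were Adra1b, Gq-coupled, and Adra2c, Gi-coupled. Adra1b averaged 8.89 ± 0.17 in KO and 8.94 ± 0.27 in WT cerebellum, against 9.96 ± 0.22 in KO and 10.06 ± 0.27 in WT in cortex, and cerebellum minus cortex was -1.07 (SE 0.14, adjusted p = 1.21e-06) in KO and -1.12 (SE 0.14, adjusted p = 4.51e-07) in WT mice. Adra2c averaged 7.83 ± 0.24 in KO and 7.72 ± 0.16 in WT cerebellum, against 8.73 ± 0.13 in KO and 8.75 ± 0.13 in WT in hippocampus. Its difference of cerebellum minus hippocampus passed the 2-fold limit in WT mice (-1.03, SE 0.15, adjusted p = 4.78e-06) and stayed just under it in KO mice (-0.90, SE 0.15, adjusted p = 4.06e-05). The WT call was lost without cerebellum WT 2 or hippocampus WT 4, and that of Adra1b in KO mice without cortex KO 4.

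Among the histamine receptors, Hrh3 had the largest difference. Hrh3 encodes the Gi-coupled receptor through which histamine neurons restrain the release of histamine and other transmitters. It read 10.95, 10.999, 11.94 and 10.83 in KO cerebellum and 10.61, 10.73, 10.95 and 10.79 in WT cerebellum. Hippocampal Hrh3 values were 13.53, 13.55, 13.02 and 12.98 in KO mice and 13.25, 13.10, 13.17 and 13.47 in WT mice. Cortical Hrh3 values were 12.85, 13.80, 13.92 and 13.65 in KO mice and 13.68, 13.86, 13.83 and 13.66 in WT mice. Every cerebellum array lay under every other array, and cerebellum minus cortex was -2.37 (SE 0.21, adjusted p = 1.59e-09) in KO and -2.99 (SE 0.21, adjusted p = 1.65e-11) in WT mice. Hrh2, Gs-coupled, was highest in cortex, with cerebellum minus cortex at -1.72 (SE 0.19, adjusted p = 6.55e-08) in KO and -1.88 (SE 0.19, adjusted p = 1.10e-08) in WT mice.

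Hrh1, the Gq-coupled receptor whose block makes older antihistamines sedating, was called in no pair of regions. It read 9.30, 8.94, 9.18 and 8.87 in KO cerebellum and 9.34, 9.20, 8.98 and 9.53 in WT cerebellum. Hippocampal Hrh1 values were 9.25, 9.23, 9.32 and 9.30 in KO mice and 9.28, 9.53, 9.24 and 9.40 in WT mice. Cortical Hrh1 values were 9.37, 9.87, 9.80 and 9.51 in KO mice and 9.85, 9.91, 9.57 and 9.79 in WT mice. Cortex had the highest means, and its difference to cerebellum was under 2-fold (-0.56, SE 0.13, adjusted p = 0.00107, in KO and -0.52, SE 0.13, adjusted p = 0.00189, in WT mice for cerebellum minus cortex). Hrh4, known from blood cells, had group means of 6.54 to 6.68, under the olfactory receptor level.

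The subunits of the main nicotinic receptor of the brain, a channel built from Chrna4 and Chrnb2, differed between regions in opposite directions. Chrna4 read 11.20, 10.97, 13.06 and 10.84 in KO cerebellum and 9.57, 10.38, 11.13 and 10.20 in WT cerebellum. Hippocampal Chrna4 values were 13.14, 12.95, 12.47 and 12.90 in KO mice and 12.82, 13.04, 13.42 and 12.32 in WT mice. Cortical Chrna4 values were 12.47, 13.14, 13.13 and 12.77 in KO mice and 13.26, 12.96, 13.22 and 13.45 in WT mice. Cerebellum lay under the other regions except for KO 3, and cerebellum minus cortex was -1.36 (SE 0.35, adjusted p = 0.00325) in KO and -2.90 (SE 0.35, adjusted p = 1.87e-07) in WT mice. The KO difference was -2.13 (SE 0.30, adjusted p = 3.15e-06) without the 3 arrays that stood apart.

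Chrnb2 read 11.03, 11.15, 10.75 and 11.40 in KO cerebellum and 10.98, 11.08, 11.05 and 11.39 in WT cerebellum. Hippocampal Chrnb2 values were 10.46, 10.69, 10.32 and 10.50 in KO mice and 10.39, 10.06, 10.54 and 10.71 in WT mice. Cortical Chrnb2 values were 10.11, 9.90, 10.47 and 10.12 in KO mice and 10.10, 10.13, 10.23 and 10.20 in WT mice. All cerebellum arrays were above all arrays of the other regions, by 0.93 against cortex in KO (adjusted p = 1.08e-05) and 0.96 in WT mice (adjusted p = 5.76e-06), which is under 2-fold. The difference to cortex passed 2-fold without cerebellum KO 3 or cortex KO 3 in KO mice (up to 1.04) and without cerebellum WT 1 in WT mice. Both promoters, printed with the others of that set, hold the GC box.

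Chrna7, which forms a receptor of its own with high calcium permeability, read 10.14, 10.30, 10.81 and 9.77 in KO cerebellum and 9.31, 9.61, 10.33 and 9.96 in WT cerebellum. Hippocampal Chrna7 values were 11.41, 11.44, 11.74 and 11.69 in KO mice and 11.54, 11.25, 11.91 and 11.50 in WT mice. Cortical Chrna7 values were 10.28, 10.30, 10.51 and 10.46 in KO mice and 10.36, 10.28, 10.65 and 10.88 in WT mice. Hippocampus lay above every other array, and hippocampus minus cortex was 1.18 (SE 0.20, adjusted p = 0.000245) in KO and 1.01 (SE 0.20, adjusted p = 0.00160) in WT mice. The WT difference fell under 2-fold without hippocampus WT 3, cortex WT 1 or cortex WT 2, to 0.89 at the lowest. Chrna5, an accessory subunit, was called lower in cerebellum than in each other region, although no group mean passed the olfactory receptor level; its lowest group mean was 5.33 and its highest 7.18. Its call against cortex was lost in WT mice without cerebellum WT 4 and in KO mice without cerebellum KO 2 or cortex KO 2.

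Chrna3 and Chrnb4 form the receptor of autonomic ganglia and of the medial habenula and lie side by side with Chrna5 on chromosome 9. Chrna3 read 8.81, 9.14, 9.27 and 8.01 in KO cerebellum and 7.92, 7.99, 8.75 and 8.20 in WT cerebellum. Hippocampal Chrna3 values were 6.89, 7.85, 6.92 and 6.12 in KO mice and 7.12, 8.01, 8.20 and 9.80 in WT mice. Cortical Chrna3 values were 9.34, 7.01, 7.07 and 8.06 in KO mice and 6.73, 6.61, 7.43 and 8.99 in WT mice. Cerebellum minus hippocampus was 1.86 (SE 0.53, adjusted p = 0.00774) in KO and -0.07 (SE 0.53, adjusted p = 0.942) in WT mice, and the highest hippocampal value was that of WT 4. The WT difference turned positive without WT 4 of hippocampus (0.43, adjusted p = 0.590) and without cerebellum WT 1 or WT 2. In KO mice Chrna3 was higher in cerebellum than in cortex by 0.94, not called, and by 1.61 (SE 0.59, adjusted p = 0.0399) without the 3 arrays that stood apart.

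Chrnb4 read 8.10, 8.28, 8.49 and 8.16 in KO cerebellum and 8.10, 7.93, 8.59 and 8.84 in WT cerebellum. Hippocampal Chrnb4 values were 7.64, 7.61, 7.27 and 7.22 in KO mice and 7.23, 6.90, 7.04 and 8.93 in WT mice. Cortical Chrnb4 values were 9.45, 7.06, 7.11 and 8.43 in KO mice and 7.11, 7.16, 7.47 and 7.40 in WT mice. WT 4 was again the high hippocampus array, and KO 1 and KO 4, the arrays rich in olfactory bulb genes, were the high cortex arrays. Cerebellum minus cortex was 1.08 (SE 0.39, adjusted p = 0.0339) in WT mice, and leaving out any 1 of 5 WT arrays (cerebellum 3 or 4, cortex 1, 2 or 4) moved its adjusted p above 0.05, up to 0.111. In KO mice cerebellum minus cortex was 0.25 with all arrays and 1.10 (SE 0.36, adjusted p = 0.0207) without the 3 arrays that stood apart. Of 13 thalamus and habenula genes other than the receptors, Pou4f1 and Gpr151 were highest on hippocampus WT 4, at 7.23 and 8.56, against at most 6.38 and 7.44 on the other hippocampus arrays. The list as a whole did not single out that array: WT 4 was the highest hippocampus array for 3 of the 13 and WT 3 for 8, and the list's mean was 10.39 in KO 1, 10.71 in KO 2, 10.97 in WT 3 and 10.21 in WT 4. The part of habenula in these values was not tested.

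The remaining neuronal subunits, Chrna2, Chrna6, Chrna9, Chrna10 and Chrnb3, were called in no pair of regions. Chrna9 and Chrna10 form the receptor of hair cells of the inner ear, and Chrna6 and Chrnb3, neighbours on chromosome 8, are best known from dopamine neurons. Their group means lay between 6.77 and 8.18.

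The second question was whether loss of glutamine synthetase in the liver altered any receptor gene in the brain. By limma, 0 of the 46 genes passed an adjusted p of 0.05 in cerebellum, hippocampus or cortex, and 0% of all genes tested did. An ordinary 2-sample test of each row on the 8 arrays of a region also called 0 of the 46. At an unadjusted p under 0.05 there were 5 receptor genes in cerebellum (10.9%, against 9.5% of all genes), 2 in hippocampus (4.35%, against 2.11%) and 5 in cortex (10.9%, against 7.45%). Leaving out the 3 arrays that stood apart gave 4 in cerebellum (against 4.14% of all genes), 3 in hippocampus (against 2.73%) and 1 in cortex, Htr2a (against 4.44%). KO and WT values did not overlap for 2 genes in cerebellum (4.35%, against 3.5%), 0 in hippocampus (against 2.17%) and 1 in cortex (2.17%, against 3.68%). Without those arrays, which leaves 2 KO arrays in cortex and 3 in cerebellum, the values did not overlap for 2 genes in cerebellum (against 5.08%) and 4 in cortex (against 13.9%). The smallest adjusted p was 0.435 in cerebellum, 1 in hippocampus and 0.366 in cortex. The median KO minus WT difference of the 46 genes was 0.051 in cerebellum, -0.027 in hippocampus and -0.076 in cortex, against -0.0037, 0.0074 and -0.011 over all genes. The median of the 46 was 0.014 in cerebellum and -0.014 in cortex without the 3 arrays. Over the mean of the 3 regions of each animal, 0 of 46 passed, and 4 had an unadjusted p under 0.05 (8.7%, against 7.41%): Htr1f, Htr2a and Chrng, higher in KO mice, and Htr6, lower.

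**Figure D4:**
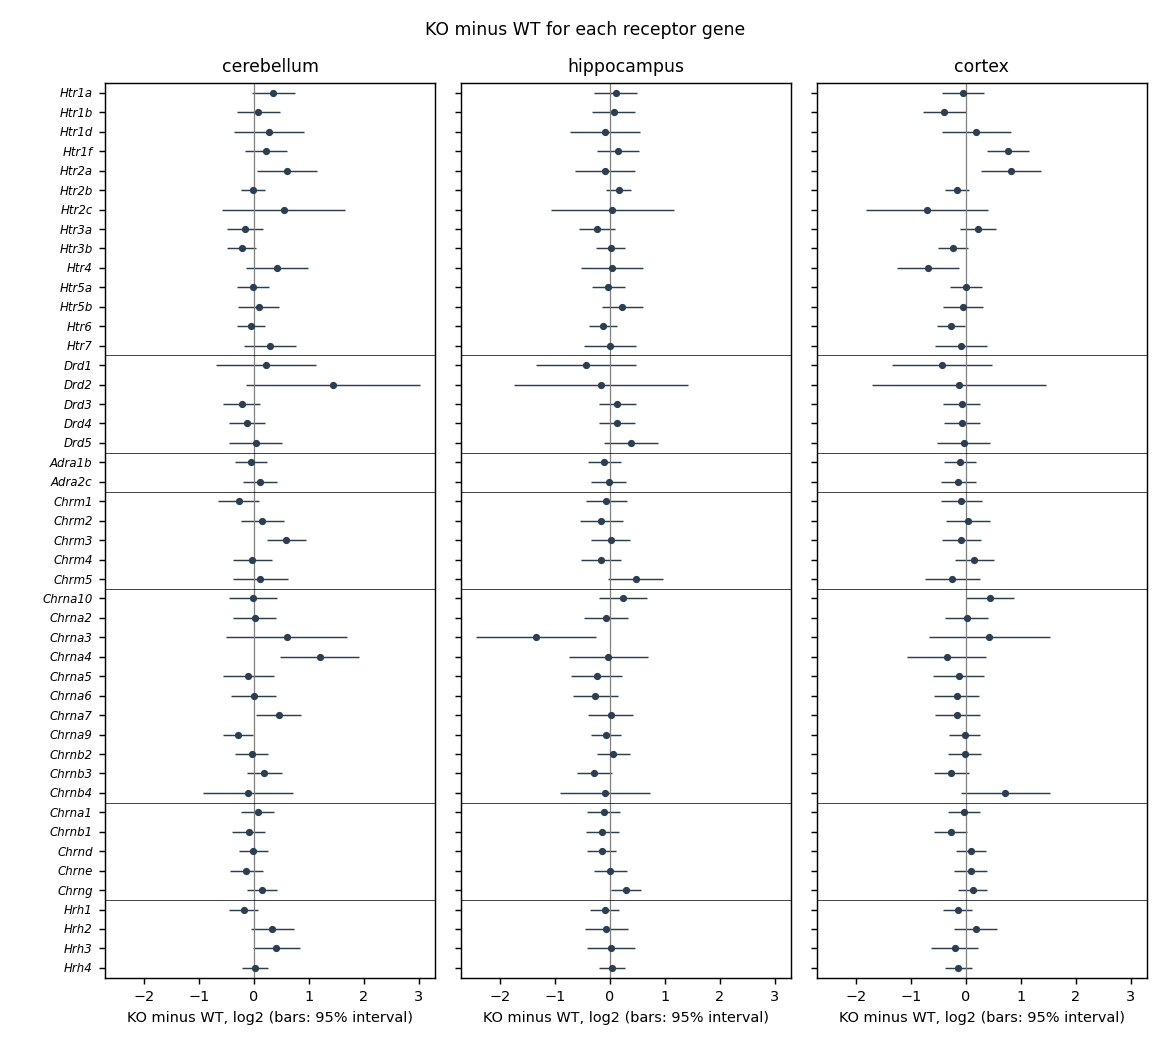
KO minus WT for each of the 46 receptor genes (rows, by family) in cerebellum, hippocampus and cortex, on the log2 scale; bars are 95% intervals of the fit with 4 arrays per group. Most intervals span 0, and the widest are those of Drd2, Htr2c and Chrna3.

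In the cerebellum the smallest unadjusted p-values belonged to Chrm3, Chrna4 and Htr2a. Chrm3 averaged 8.39 ± 0.23 in KO and 7.80 ± 0.30 in WT mice, a difference of 0.59 (95% interval 0.24 to 0.94, unadjusted p = 0.00203, adjusted p = 0.435), and its KO values, 8.20 to 8.72, lay above its WT values, 7.40 to 8.13. Chrna4 averaged 11.52 ± 1.04 in KO and 10.32 ± 0.64 in WT mice, a difference of 1.20 (95% interval 0.48 to 1.91, unadjusted p = 0.00209, adjusted p = 0.435), with KO 3 at 13.06 and the other KO arrays at 10.84 to 11.20. Htr2a averaged 8.94 ± 0.76 in KO and 8.34 ± 0.36 in WT mice, a difference of 0.60 (95% interval 0.06 to 1.14, unadjusted p = 0.0313, adjusted p = 0.496). KO 3 was the highest cerebellum array for all 3 genes. Without the 3 arrays that stood apart, the differences were 0.48 for Chrm3 (unadjusted p = 0.00453), 0.68 for Chrna4 (0.0119) and 0.23 for Htr2a (0.255), with adjusted p of 0.998 for each. Chrna9, the other gene without overlap, read 7.64 to 7.99 in KO and 8.06 to 8.42 in WT mice, a difference of -0.29 (95% interval -0.56 to -0.01, unadjusted p = 0.0444, adjusted p = 0.517). It was -0.32 (unadjusted p = 0.0309, adjusted p = 0.998) without the 3 arrays.

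Cerebellum KO 3 was also the highest cerebellum array for Drd2 (10.48), Hrh3 (11.94), Htr1a (9.38), Htr4 (9.56) and Htr2c (13.06). The genes of serotonin neurons, Tph2 for serotonin synthesis and Slc6a4 for its uptake, read 10.345 and 12.36 on this array, against at most 6.25 and 8.39 on the other cerebellum arrays. The largest KO minus WT difference of a receptor gene in cerebellum was that of Drd2, 1.44 (95% interval -0.15 to 3.02, unadjusted p = 0.0733, adjusted p = 0.555), and it was 1.06 (unadjusted p = 0.156) without the 3 arrays that stood apart. Marker levels also varied among the cerebellum arrays that were kept. The mean of 13 thalamus and habenula genes was 10.61, 10.46 and 10.11 in KO 1, KO 2 and KO 4. In WT 1 to WT 4 it was 9.63, 10.09, 10.47 and 9.98. The part of brainstem, cortical or other tissue in these differences was not tested beyond leaving out cerebellum KO 3.

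In the hippocampus Chrna3 averaged 6.95 ± 0.70 in KO and 8.28 ± 1.12 in WT mice, a difference of -1.34 (95% interval -2.43 to -0.24, unadjusted p = 0.0187, adjusted p = 1.00). The groups overlapped, and the difference was -0.83 without WT 4, its highest array. Chrng, the fetal muscle subunit, differed by 0.29 (95% interval 0.03 to 0.56, unadjusted p = 0.0317, adjusted p = 1.00), with no group mean above the olfactory receptor level, and read 6.93, 6.94, 7.11 and 7.23 in KO mice and 6.52, 6.64, 6.91 and 6.95 in WT mice. Chrm5 differed by 0.47 (95% interval -0.03 to 0.97, unadjusted p = 0.0642, adjusted p = 1.00), and by 0.28 without KO 2, its highest array. With any 1 array left out, the lowest adjusted p of these 3 genes was 0.9996.

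In the cortex Htr1f averaged 9.93 ± 0.54 in KO and 9.17 ± 0.30 in WT mice, a difference of 0.77 (95% interval 0.39 to 1.15, unadjusted p = 0.000345, adjusted p = 0.366). Its highest KO values, 10.49 and 10.31, came from KO 1 and KO 4, the arrays rich in olfactory bulb genes, and KO 2 and KO 3 read 9.50 and 9.43, against 8.76 to 9.44 in WT mice. Leaving out KO 2 or KO 3 brought its adjusted p under 0.05, to 0.0330 at the lowest, whereas without the arrays that stood apart the difference was 0.30 (unadjusted p = 0.0620, adjusted 0.996). Htr2a averaged 12.60 ± 0.29 in KO and 11.78 ± 0.44 in WT mice, a difference of 0.82 (95% interval 0.28 to 1.36, unadjusted p = 0.00451, adjusted p = 0.511), and its KO values, 12.31 to 13.01, lay above its WT values, 11.16 to 12.20. The Htr2a difference was 0.61 without cortex WT 4, its lowest array, and 0.67 (unadjusted p = 0.00679, adjusted 0.996) without the arrays that stood apart. Htr4 differed by -0.69 (95% interval -1.26 to -0.13, unadjusted p = 0.0179, adjusted p = 0.589), and by -0.37 (unadjusted p = 0.176) without those arrays.

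**Figure D5:**
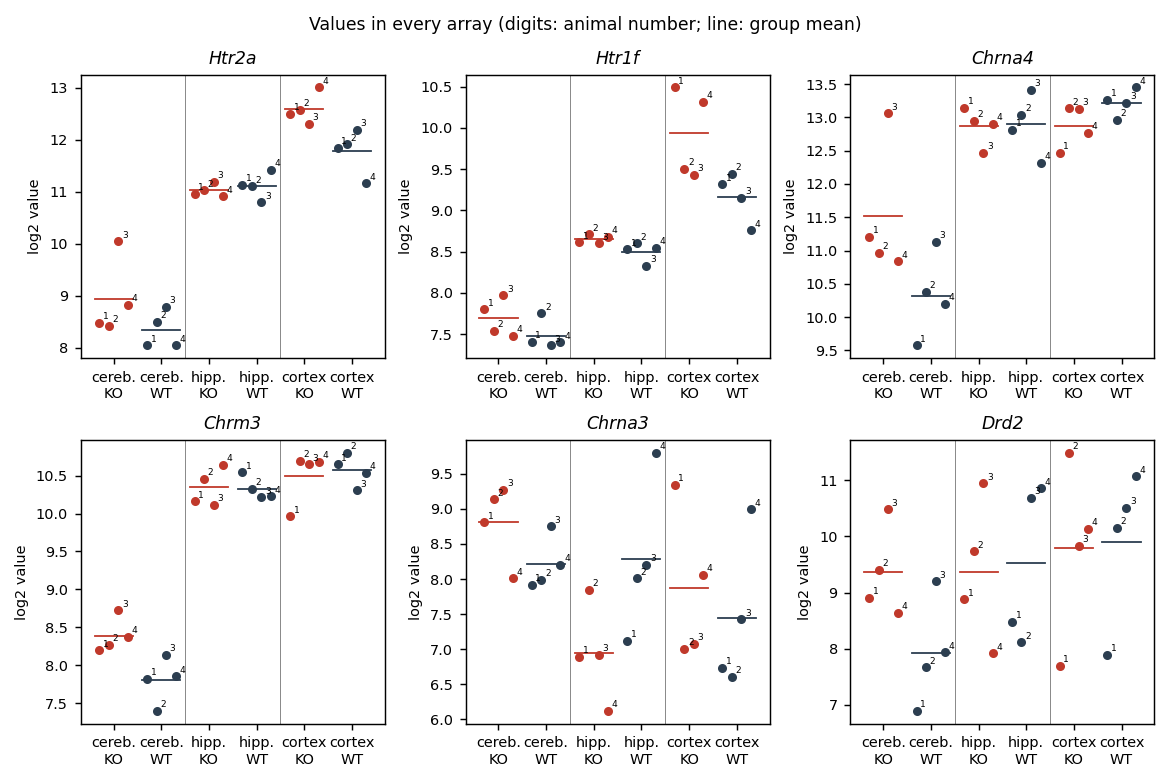
Log2 values of 6 receptor genes in every array, by region and genotype (KO in red left of WT in dark); digits are animal numbers within a genotype and lines are group means of 4 arrays. Cerebellum KO 3 is the highest cerebellum array for Htr2a, Chrna4, Chrm3 and Drd2, cortex KO 1 and KO 4 are the highest for Htr1f, and hippocampus WT 4 is the highest hippocampus array for Chrna3.

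Genes that supply the transmitters and carry the receptors' signals were counted in the same tests. Of 22 genes for making, packing, taking up or breaking down monoamines and acetylcholine, 14 genes for nicotinic receptor assembly and its prototoxins, and 30 genes for G protein transduction, 0 passed for KO against WT in any region. In the cortex Th, the enzyme that starts dopamine synthesis and is made by interneurons of the olfactory bulb, differed by 2.82 (SE 0.75, adjusted p = 0.366) and read 14.18 and 13.23 in KO 1 and KO 4, against 9.005 and 8.66 in KO 2 and KO 3 and 8.32 to 8.61 in WT mice. In the cerebellum Hnmt, which inactivates histamine, differed by 0.74 (SE 0.21, adjusted p = 0.435), and Maob, which oxidises monoamines, by 0.52 (SE 0.17, adjusted p = 0.435). Cerebellum KO 3 was the highest KO array for both, at 12.31 for Hnmt and 10.64 for Maob. Leaving out the arrays that stood apart gave differences of 0.41 for Hnmt (adjusted p = 0.998), 0.28 for Maob (adjusted p = 0.998) and 0.38 for Th in cortex (adjusted p = 0.996). Hnmt was not confined to the cerebellum: it read 11.75 to 12.19 in KO and 11.17 to 11.57 in WT cortex. Its cortex difference was 0.47, and 0.57 (unadjusted p = 0.00156, adjusted p = 0.996) without those arrays. In hippocampus the Hnmt difference was -0.0056, and averaged over the 3 regions it was 0.40 (SE 0.12, adjusted p = 0.661).

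Between regions of WT mice, 6 of the 30 transduction genes were lower and 3 higher in cerebellum than in cortex, and 7 were lower and 3 higher than in hippocampus. Adcy2, an adenylyl cyclase, differed by -3.19 (SE 0.21) for cerebellum minus cortex, and Rgs4, which shortens Gi and Gq signals, by -4.85 (SE 0.41). Plcb4, the phospholipase C of Purkinje cells, differed by 4.15 (SE 0.39) for cerebellum minus hippocampus. Of the 14 assembly genes, 4 were lower in cerebellum than in cortex and 3 lower than in hippocampus, among them Ly6h, a prototoxin that limits nicotinic receptors at the surface, with -2.20 (SE 0.17) and -2.38 (SE 0.17). Of the 22 supply genes, 1 was higher in cerebellum than in cortex, 1 lower than in hippocampus, and 1 higher in hippocampus than in cortex, Slc29a4, a low-affinity monoamine transporter (1.35, SE 0.24).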

How the data were processed

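Total RNA of 3 brain regions from 4 KO and 4 WT mice was measured on 24 arrays. The deposited values are log2 values, 1 per transcript cluster and array, made by the authors with RMA per the submitters' processing notes; RMA corrects background, normalizes between arrays and summarizes probes, and shrinks differences of dim probes. No source used here states its version, its settings, its log base or a genome build. The values themselves show a log2 scale (3.89 to 19.14, array medians 8.719 to 8.816), and the labels name both biotin and Cy3 as the label. No scanner files were used, so detection could not be judged per array; the number of arrays limits the precision.

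Of 22206 rows, 19572 with 1 gene symbol were tested and 2634 without a gene were left out, with no filter on dim signal. The fit used limma 3.58.1 under R 4.3.3, with all 24 arrays and 1 mean per group (18 residual degrees of freedom, prior 6.9), 2-sided, with Benjamini-Hochberg adjustment over all 19572 rows at 0.05; region calls also needed 2-fold. KO against WT within a region had no block, since WT 1 and KO 1 are different animals. Contrasts across regions had the animal as a random effect (statmod 1.5.0, consensus correlation 0.00646), because the titles give the same animal number in each region of a genotype. The correlation of deviations between regions of 1 animal had a median of 0.036 (-0.191 to 0.297, over 0.1 in 6 of 24 pairs). The p-values rest on the spread of arrays within groups, pooled over the 6 groups, where each array of a group is from a different animal. That spread includes differences in dissection, and contrasts between regions compare regions of the same animals. The procedure was tested on simulated data.

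The receptor genes and the gene lists were chosen with earlier results of these data known. Values in every array are given for the 3 receptor genes of smallest p for KO against WT in each region, the 4 most different each way among those called for each pair of regions in WT mice, and 15 measured genes named for their role; of the other lists, the 3 genes of smallest p in a comparison may be named. Chrna9 and cell type markers such as Ttr, Pou4f1 and Tph2 were named after their values were seen. Alternatives were leaving out each array, leaving out the 3 arrays that stood apart, the dim rows left out, a fixed or no animal block, no minimum fold and other fits listed with their effect at the end. Start regions came from RefSeq (GRCm38.p6), matched by gene ID for 46 of 46 genes, of which 37 had an entry. Figures were drawn with matplotlib 3.10.9.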

Additional observations from a re-analysis of the deposited data

Results flagged for a closer look

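In 9 of 138 groups of 4 arrays (23 named receptor genes in 6 groups), the highest or lowest array lay apart from the rest by a share of the group's range beyond Dixon's 95% critical value; chance gives about 1 such group in 20. 2 of them came from cerebellum KO 3, the cerebellum array with the highest mean levels of brainstem, oligodendrocyte and microglia genes. Chrna4 read 13.06 there, against 10.84 to 11.20 in the other KO cerebellum arrays, and Hrh3 read 11.94, against 10.83 to 10.999. 2 came from cortex KO 1, one of the arrays rich in olfactory bulb genes, where Chrm3 read 9.96, against 10.65 to 10.70, and Htr5b read 8.48, against 7.66 to 7.79. Chrnb4 read 8.93 in hippocampus WT 4, against 6.90 to 7.23 in the other WT arrays.

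The remaining values were Chrm5 in hippocampus KO 2 at 9.18 (others 8.36 to 8.48), Chrm1 in hippocampus WT 1 at 13.87 (others 13.61 to 13.64), Drd5 in cortex WT 4 at 8.82 (others 7.92 to 7.99) and Htr1f in cerebellum WT 2 at 7.75 (others 7.36 to 7.41). The cause was not tested.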

How the results depend on the processing

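Under array weights, an intensity trend, median centring, quantile normalization, rows above the olfactory receptor level only, and a fixed, no or random animal block, each count of receptor genes called stayed within 1.5 times its value in the report, and none of the differences by which receptor genes were chosen for naming changed direction under any alternative run. Other differences did when 1 array was left out, such as cerebellum minus hippocampus of Chrna3 in WT and cerebellum minus cortex of Drd2 in KO mice. With the replicate block as fixed terms, 17 and 20 receptor genes were lower in WT cerebellum than in cortex and hippocampus, against 16 and 19. The block changed no other call by over 1.5 times, and it could not be fitted for the KO minus WT difference averaged over the regions. With no minimum fold, the counts were 6 lower for hippocampus against cortex in WT and 7 in KO mice (against 0 and 3), 2 higher for cerebellum against cortex in WT and 2 in KO mice (against 1 and 0), and 1 higher for cerebellum against hippocampus in WT and 2 in KO mice (against 0 and 1). The shares over all genes with no minimum fold are not given, so these counts describe the setting only. Without the 3 arrays that stood apart, 3 receptor genes were higher in KO cerebellum than in cortex, against 0. Leaving out each array in turn gave 0 to 1 higher for cerebellum against cortex in KO, 0 to 2 in WT mice, 0 to 1 higher for cerebellum against hippocampus in WT mice, 2 to 4 lower for hippocampus against cortex in KO mice, and 0 to 1 for KO against WT in cortex, where the gene was Htr1f; the cause was not tested. The mean of several rows per symbol was not run, since each receptor gene had a single row. Dim genes, 10 of the 46, are limited by signal over background.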
